A study of Mus musculus with 8 samples.

Results

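The peak lists of N6-methyladenine (6mA) in mouse embryonic stem cells are described here for 2 conditions, with 1 list from cells grown without folate (FA0) and 1 from cells grown with 4 mg/L folate (FA4). They were chosen as the lists that call the FA0 and FA4 immunoprecipitates against their own inputs. They use 4 of the 8 samples of the series and hold 58885 of the 90798 peaks of its 8 lists. FA0 held 38699 peaks and FA4 20186. The cells were one culture of the Sv/129 line that was thawed and then divided at random. Both parts were fed the same folate-free, serum-containing medium with leukemia inhibitory factor, to which folate was added back for FA4. The labels do not say how long the cells stayed in either medium, and the serum can bring folate of its own. Genomic DNA was fragmented by sonication and pulled down with a 6mA antibody kit, with an untreated portion set aside as input. Each condition has a single list and no replicate, so each comparison between FA0 and FA4 describes these lists and carries no test. Intervals are 95% intervals that cover counting error alone.

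6mA is a methyl group on the nitrogen at the sixth position of adenine. It is a common mark of bacterial DNA and was reported at low levels in mammalian DNA, where its abundance is debated. In mouse embryonic stem cells ALKBH1 was reported to remove it, and METTL4 and N6AMT1 were proposed as writers. Folate carries the one-carbon units from which S-adenosylmethionine, the methyl donor of DNA methylation, is made. An antibody pull-down finds short stretches of DNA that carry the mark, not single adenines.

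Most peaks were small. The deposited tag count of a peak, a whole number, had a median of 8 in both lists and a minimum of 6 in both, and reached 99590 in FA0 and 97971 in FA4. Peaks of 6 to 9 tags made up 80.7% of FA0 and 82.7% of FA4. The authors' q-value was above 0.05 for 97.3% of FA0 peaks and 95.3% of FA4 peaks. The median peak was 283 bp long in FA0 and 285 bp in FA4. The deposited fold is the ratio of tags and background after 1 is added to each, so the background behind each peak could be recovered. Each list has a most frequent background, at 2.118 tags in FA0 and 1.862 tags in FA4, and a peak is said to have a raised background where it lies over 1% above that. A raised background was found for 35.4% of FA0 peaks and 39.8% of FA4 peaks.

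A few promoters show what a called peak covers. The promoter window runs from 250 bases before to 50 bases after a transcription start. A peak covered at least 150 of its 300 bases at 97 of 27025 genes in FA0, at 32 in FA4 and at 0 in both. With so few windows covered in each list, an empty overlap is no sign of a difference between conditions. Below, 4 of these windows are printed on the strand of their gene, 5′ to 3′, with the bases inside the peak in capitals. They were picked after their values were seen, from those with the highest deposited folds. The sequences are from RefSeq on GRCm38.p6, the assembly of mm10.
Spryd4 (FA0, chr10:128211745-128212044, minus strand): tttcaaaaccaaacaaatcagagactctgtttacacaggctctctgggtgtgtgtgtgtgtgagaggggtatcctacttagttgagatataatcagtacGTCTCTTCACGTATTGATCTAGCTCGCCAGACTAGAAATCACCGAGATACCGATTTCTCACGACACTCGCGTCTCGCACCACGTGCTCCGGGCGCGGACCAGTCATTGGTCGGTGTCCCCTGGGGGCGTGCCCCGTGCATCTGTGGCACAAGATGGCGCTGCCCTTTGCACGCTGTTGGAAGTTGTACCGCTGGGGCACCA
Gm11938 (FA0, chr11:99603259-99603558, minus strand): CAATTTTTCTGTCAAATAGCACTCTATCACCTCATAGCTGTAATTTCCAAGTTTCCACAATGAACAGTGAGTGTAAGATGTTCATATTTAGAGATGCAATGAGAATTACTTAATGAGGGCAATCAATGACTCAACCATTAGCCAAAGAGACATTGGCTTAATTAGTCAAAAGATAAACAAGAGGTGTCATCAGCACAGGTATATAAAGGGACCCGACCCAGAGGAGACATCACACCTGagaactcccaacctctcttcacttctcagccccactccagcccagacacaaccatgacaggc
Hypk (FA4, chr2:121456838-121457137, plus strand): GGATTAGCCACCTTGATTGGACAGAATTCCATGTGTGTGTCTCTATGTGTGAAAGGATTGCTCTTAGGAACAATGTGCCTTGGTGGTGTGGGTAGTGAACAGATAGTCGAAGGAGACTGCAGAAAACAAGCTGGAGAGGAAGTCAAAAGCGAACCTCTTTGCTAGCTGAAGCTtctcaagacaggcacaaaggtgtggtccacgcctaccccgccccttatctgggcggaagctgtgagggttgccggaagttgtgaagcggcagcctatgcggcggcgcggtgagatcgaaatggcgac
Adgrg7 (FA4, chr16:56795809-56796108, minus strand): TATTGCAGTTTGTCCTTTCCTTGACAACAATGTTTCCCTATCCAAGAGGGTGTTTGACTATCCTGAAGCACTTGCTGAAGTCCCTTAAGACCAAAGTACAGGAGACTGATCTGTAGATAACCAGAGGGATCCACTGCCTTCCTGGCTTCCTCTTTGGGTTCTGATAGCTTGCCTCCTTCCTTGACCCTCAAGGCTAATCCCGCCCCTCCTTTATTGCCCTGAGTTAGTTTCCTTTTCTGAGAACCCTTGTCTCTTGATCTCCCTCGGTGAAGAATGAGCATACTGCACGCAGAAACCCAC
Spryd4, which encodes a SPRY domain protein, has its FA0 peak of 10 tags over the last 201 bases of the window, which hold its start, while the first 99 bases lie outside. Gm11938 has an FA0 peak of 10 tags over its first 238 bases. The FA4 peak of 12 tags at Hypk, a chaperone partner of the ribosome, also covers the promoter of Serinc4 and spans the first 173 bases of the Hypk window. At Adgrg7, an adhesion G protein-coupled receptor gene, an FA4 peak of 9 tags spans the whole window. Their authors' folds ran from 3.17 to 3.70, and none of these 4 peaks had a q of 0.05 or less, with −log10 q between 0.436 and 1.14. Gm51571 on chromosome 8, whose window is not printed, had an FA4 peak of 21 tags and a fold of 3.19, above that of Adgrg7. Its −log10 q was 1.82, which is a q under 0.05. The covered windows were richer in A and T than promoters at large, with a median of 55.8% in FA0 and 53.7% in FA4 against 47.3% over all 32851 promoter windows. They held a median of 3 and 4 CG pairs against 7. The letters GATC, which read the same on both strands and are the adenine methylation site of many bacteria, occurred in 53.8% of the 104 FA0 windows and 58.8% of the 34 FA4 windows, and in 48.0% of all windows. A match is a description of the letters and not a modified base.

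The lists differed in length among small peaks and came together among large ones. FA0 had 1.92 times as many peaks as FA4 (interval 1.88 to 1.95). Among peaks with q of 0.05 or less the ratio was 1.09 (0.99984 to 1.20), and among those with a fold of at least 5 it was 0.870 (0.555 to 1.36), both with intervals that span 1. At a minimum of 10 tags the counts were 7486 and 3492, a ratio of 2.14 (2.06 to 2.23). At 15 tags they were 657 and 421, or 1.56 (1.38 to 1.77), and at 20 tags 348 and 243, or 1.43 (1.21 to 1.69). At 30 tags they were 210 and 167, or 1.26 (1.021 to 1.55). At 50 tags FA0 held 104 peaks and FA4 98, a ratio of 1.06 with an interval of 0.798 to 1.41 that spans 1. The excess of FA0 was thus carried by peaks under 50 tags. The read totals of the libraries were not used here, so the part of sequencing depth in these counts was not tested. Chromosome 8 pulled the ratio down: without it FA0 had 2.14 times as many peaks in all, 2.58 times as many at 10 tags, 1.68 at 15 tags and 1.06 at 50 tags.

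**Figure D1:**
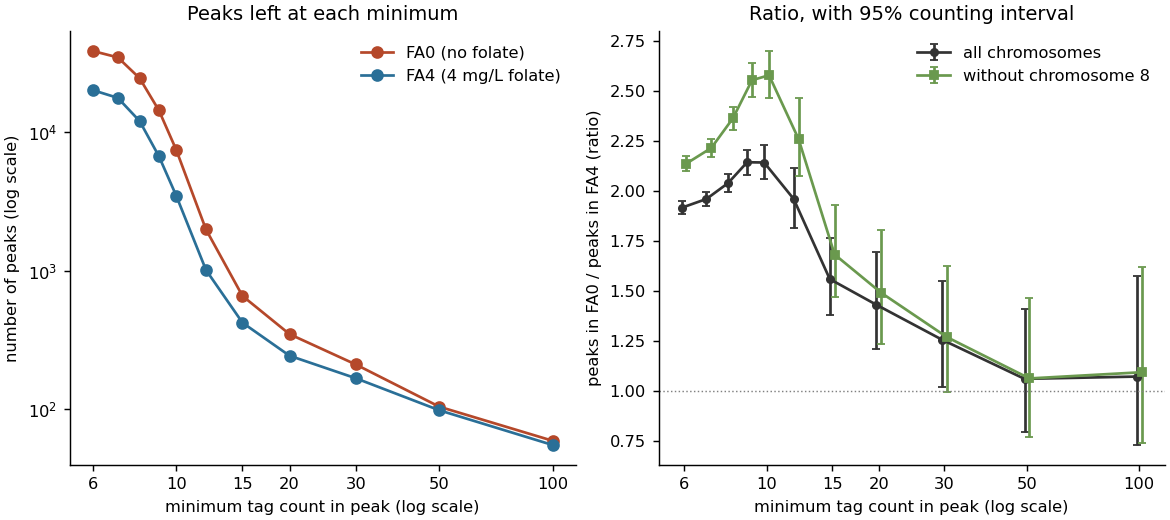
Number of peaks left in each list (left, log scale) and the ratio of FA0 to FA4 counts (right, bars are 95% counting intervals) against the minimum tag count in the peak (log scale). The ratio climbs to 2.14 at 10 tags, or 2.58 without chromosome 8, and falls to 1.06 at 50 tags.

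Few sites were called in both conditions. A shared peak is one that overlaps a peak of the other list by at least 1 base. This held for 697 FA0 peaks, 1.80% of that list, and for 694 FA4 peaks, 3.44% of that list. The share rose with peak size. Among peaks of 6 tags it was 0.610% (0.410 to 0.905%) in FA0 and 2.23% (1.72 to 2.90%) in FA4. Among peaks of 10 or 11 tags it was 2.07% and 3.95%, and among those of 20 to 49 tags it was 27.5% and 38.6%. At 50 tags or more it reached 78.8% (70.0 to 85.6%) in FA0 and 79.6% (70.6 to 86.4%) in FA4. The list size sets how many partners a peak can meet, so the higher share in FA4, against the longer list, is no sign of a difference between conditions. Chromosome 8 went its own way among the large peaks: at 50 tags or more 35.0% of its 20 FA0 peaks (18.1 to 56.7%) were shared, against 89.3% of the 84 peaks elsewhere (80.9 to 94.3%). In FA4 the share was 47.4% of its 19 peaks (27.3 to 68.3%), against 87.3% of the 79 elsewhere (78.2 to 93.0%). The chromosome 8 shares rest on few peaks.

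**Figure D2:**
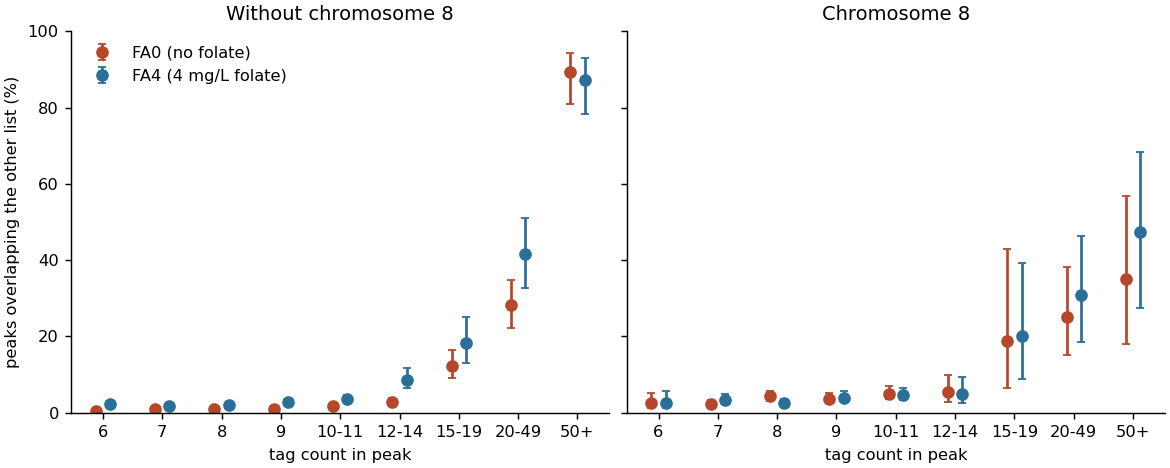
Share of the peaks of each list that overlap a peak of the other list (percent, bars are Wilson 95% intervals) by tag count in the peak, outside chromosome 8 (left) and on it (right). Outside chromosome 8 the share is under 4% up to 11 tags and 87.3% or more at 50 tags. On chromosome 8 it is 35.0% of 20 peaks in FA0 and 47.4% of 19 in FA4 in that last class.

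The 6 shared peaks with the highest smaller fold lay at or near Adgre5, Flt1, Ttc21b, Klhl31, Vmn2r87 and A630089N07Rik. The folds here and below are the authors' own and serve to rank peaks within a list. At Adgre5, which encodes the leukocyte adhesion receptor CD97, the peak at chr8:83756754-83756987 held 851 tags in FA0 and 462 in FA4, with folds of 53.0 and 54.2. It lies 15.6 kb before the start of the gene. In an intron of Flt1, a receptor for vascular endothelial growth factor, the peak at chr5:147611432-147611669 held 198 and 94 tags, with folds of 63.1 and 33.2. Tags were thus higher in FA0 at both peaks, while the folds were nearly equal at Adgre5, where the background was 15.1 tags in FA0 and 7.54 in FA4. The peak in an intron of Ttc21b, a gene of transport in cilia, held 70 and 46 tags, that in Klhl31, a muscle gene, 31 and 27, and that in the neighbourhood of the vomeronasal receptor gene Vmn2r87 144 and 107. Over the 697 FA0 peaks that were shared, FA0 had more tags than its partner at 367, FA4 at 234, and 96 were equal. The median tag ratio was 1.04 and the median fold ratio 0.987. Among the 127 pairs with at least 20 tags on both sides, FA0 had more tags at 87 and FA4 at 37, and FA0 had the higher fold at 70.

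The strongest FA0 peak with no partner was in an intron of Lama1, the laminin alpha 1 chain of early basement membranes, at chr17:67741363-67741595, with 41 tags, a fold of 11.95 and a −log10 q of 30.2, and the nearest FA4 peak was 100 kb away. It was followed by a peak of 26 tags 46.0 kb from the start of Rcan2, a regulator of calcineurin, with a fold of 7.68, and one of 20 tags near Gm38397, with a fold of 6.73. Peaks of 17 tags at Catsper4, a subunit of the sperm calcium channel, and near Mir133a-1 and Mir1a-2, the muscle microRNAs, had folds of 5.77 and 5.69. A peak of 16 tags in Svep1, a gene of the extracellular matrix, had a fold of 5.45. In FA4 the strongest peak alone had 19 tags and a fold of 6.99 near 1700018B08Rik on chromosome 8, 1.51 kb from the nearest FA0 peak. The next were 22 tags near Zxda, an X-linked zinc finger gene, with a fold of 6.55, and 19 tags near B930018H19Rik on chromosome 8, with a fold of 6.34. Peaks of 16 tags in Tmem163, a zinc transporter gene, and near Efcab3 had a fold of 5.94, and a peak of 15 tags in 4933416E03Rik one of 5.59. Apart from Lama1, these peaks held between 15 and 26 tags in both lists.

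The conditions also differed in where on the chromosomes the peaks lay. Chromosome 8 held 3602 FA0 peaks, 9.31% of the list (9.02 to 9.60%), and 3774 FA4 peaks, 18.7% (18.2 to 19.2%), so it was the only autosome with fewer peaks in FA0. Its density was 1.88 times that of the median autosome in FA0 and 3.79 times in FA4. The 6 brain lists of the series serve here for position alone. They are 3 lists named as cases and 3 as controls, and the brain samples are labelled as methotrexate-treated with neural tube defects (NTD) or as given normal saline (CON), so they are not all from untreated tissue. They put between 5.25% and 6.36% of their peaks on it. Its peaks also had a raised background more often, at 51.2% in FA0 and 84.6% in FA4, against 31.9% and 29.6% outside chromosome 8 and the 3 stretches described below. Among peaks at the common background chromosome 8 held 7.02% of FA0 and 4.80% of FA4, which turns the order of the conditions. The part of the background in the chromosome 8 counts was not tested further.

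Other chromosomes held few FA4 peaks. Chromosome 7 held 2054 FA0 peaks and 395 FA4 peaks, a ratio of 5.20 (4.67 to 5.81) against a median of 2.12 over the 19 autosomes. Chromosome 12 had 1618 and 436 (3.71), chromosome 4 had 2119 and 622 (3.41), and chromosome 18 had 1348 and 471 (2.86). On these 4 chromosomes FA0 stood at 0.910 to 1.00 of its median autosomal density, and FA4 at 0.353 on chromosome 7, 0.471 on chromosome 12, 0.516 on chromosome 4 and 0.675 on chromosome 18. FA0 was thus near its median there and FA4 well under its own. A raised background was about as frequent there as elsewhere, at 28.6% of FA4 peaks on chromosome 7. Chromosome 6 was the reverse case, with 3215 and 1236 peaks (2.60) and an FA0 density of 1.45 times the median autosome beside 1.07 in FA4. A raised background was found for 40.5% of its FA0 peaks and 30.7% of its FA4 peaks, which left 1914 and 856 at the common background. The part of the background in these counts was not tested. The X chromosome held few peaks in both, 219 and 165, at 0.0865 and 0.125 of the density of the median autosome.

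**Figure D3:**
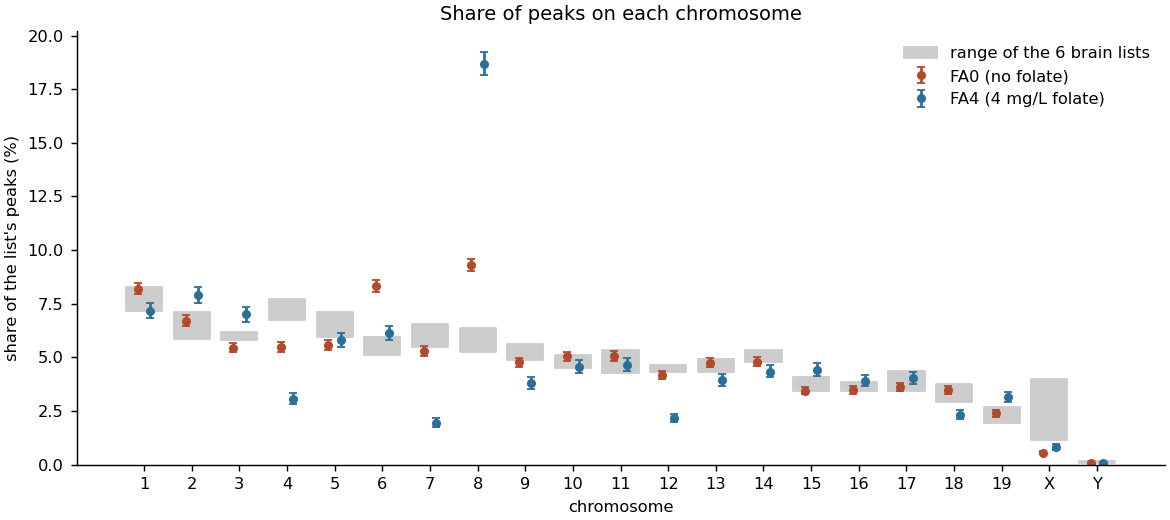
Share of each list's peaks on each chromosome (percent, bars are Wilson 95% intervals), with grey boxes for the range of the 6 brain lists. FA4 stands at 18.7% on chromosome 8, where FA0 is at 9.31%, and falls below FA0 on chromosome 7, where the lists hold 395 and 2054 peaks.

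The chromosomes were cut into windows of 10 Mb and the share of each list's peaks compared in each. Of 264 windows with at least 20 peaks in the 2 lists, 62 (23.5%) had a share over 1.5 times higher in FA0 and 36 (13.6%) over 1.5 times lower. These windows were not scattered. All 15 windows of chromosome 7 were higher in FA0, as were 13 of 16 on chromosome 4, 10 of 12 on chromosome 12, 8 of 10 on chromosome 18 and 6 of 15 on chromosome 6. All 13 windows of chromosome 8 were lower in FA0. The shares are of the whole list, so the high FA4 share on chromosome 8 lowers the FA4 share of every other window. With chromosome 8 left out, 44 windows were higher and 36 lower in FA0. The counts by chromosome given here are from the whole lists. On chromosomes 10 and 11 all 13 windows each stayed within 1.5-fold. The highest share ratio, 4.76, was in the window from 90 to 100 Mb of chromosome 14, with 292 FA0 and 32 FA4 peaks, and the next 4 were on chromosomes 7 and 4, with ratios from 3.95 to 4.60. The lowest, 0.106, was from 50 to 60 Mb of the same chromosome 14, with 14 and 69 peaks, followed by its neighbour at 0.232 and by 3 windows of chromosome 8 from 0.239 to 0.347.

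Counts per 1 Mb outlined 3 stretches on chromosomes 1 and 14. Most of the windows past 1.5-fold lay elsewhere, on chromosomes 4, 6, 7, 8, 12 and 18. The stretches are the runs of 1 Mb windows with at least 24 FA0 peaks on chromosome 1, and with at least 22 or at most 3 FA0 peaks on chromosome 14. These limits were chosen after the counts were seen, so the FA0 numbers inside them follow from the choice and test nothing. The first ran from 111 to 127 Mb of chromosome 1. It held 674 FA0 peaks and 111 FA4 peaks, a ratio of 6.07 (4.96 to 7.49). FA0 had 24 to 60 peaks in each 1 Mb of it, against 6 to 9 in each of the 4 Mb before and 12 to 23 in each of the 4 Mb after, while FA4 had 3 to 18 inside. FA0 peaks there were also larger, with a median of 11 tags against 8 in FA4, and 502 of them had 10 tags or more against 15 in FA4. A raised background was found for 98.7% of the FA0 peaks and 25.2% of the FA4 peaks, which left 9 FA0 and 83 FA4 peaks at the common background. The median FA0 background was 3.28 tags. The brain lists had 0.628 to 0.880 of their mean density over all autosomes there. Tags in the immunoprecipitate and the recovered background thus rose together in FA0 in this stretch, and the part of the one in the other was not tested.

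The second ran from 91 to 109 Mb of chromosome 14, with 572 FA0 and 69 FA4 peaks, a ratio of 8.29 (6.45 to 10.8). FA0 had 22 to 44 peaks per 1 Mb inside and 8 to 21 before it, and FA4 1 to 7. A raised background was found for 67.1% of FA0 and 29.0% of FA4 peaks, and 188 and 49 peaks were at the common background. FA4 was itself thin there, at 0.498 of its median autosomal density, and FA0 stood at 2.15. The third, from 44 to 68 Mb of the same chromosome, went the other way, with 30 FA0 and 174 FA4 peaks, a ratio of 0.172 (0.113 to 0.255). FA0 had 0 to 3 peaks in each 1 Mb, against 7 to 20 before and 10 to 17 after. It fell to 0.0844 of its median autosomal density, while FA4 was at 0.941 of its own. The brain lists stood between 1.022 and 1.31 of their mean density over all autosomes, which is another measure. A raised background was found for 10.0% of the FA0 peaks there and 25.9% of the FA4 peaks. Chromosome 8 was not even either. Between its first 10 Mb and its last 6 Mb the lists held 3443 and 3375 peaks, close to equal numbers, but the first 10 Mb held 94 and 205 and the last 6 Mb 65 and 194. The first 3 Mb held no peak of either list and were left out of the densities. On that count FA0 was at 0.906 and 0.830 of its median autosomal density in these end parts, and FA4 at 3.80 and 4.76. At the common background FA0 had more peaks in each part, with 67 and 42 at the start, 1636 and 519 between and 53 and 22 at the end, and 79.5% to 88.7% of the FA4 peaks had a raised background.

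**Figure D4:**
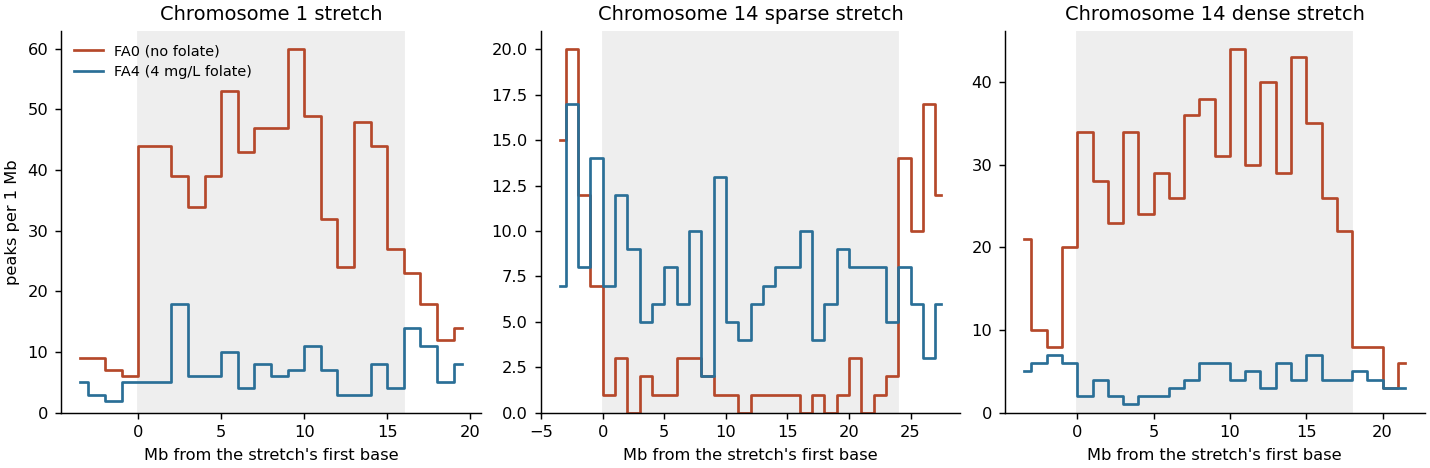
Peaks per 1 Mb in FA0 and FA4 against the distance in Mb from the first base of 3 stretches (shaded) on chromosomes 1 and 14. FA0 has 24 to 60 peaks per 1 Mb in the chromosome 1 panel, 0 to 3 in the sparse panel and 22 to 44 in the dense panel, while FA4 stays at 18 or fewer in each shaded part.

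Genes in these stretches differed accordingly. The authors assigned 134 FA0 and 24 FA4 peaks to Cntnap5a, a contactin-associated cell adhesion gene of 903 kb on chromosome 1, and 48 and 6 of all peak summits fell inside it. Dpp10, which encodes a subunit of potassium channels, had 63 and 8 assigned, with 51 and 6 inside. Dsel, a small gene beside a wide gene-poor region, had 99 and 25 assigned and 0 inside in both. Of the 33 protein-coding genes of the chromosome 1 stretch, 31 had an assigned FA0 peak and 19 an FA4 peak. En1, a homeobox gene of the midbrain and hindbrain, Gli2, a transcription factor of Hedgehog signalling, and Tfcp2l1, a factor of the naive pluripotent state, all lie there. They had 13 and 3, 13 and 3, and 11 and 1 peaks assigned, with 1 and 0, 7 and 2, and 4 and 1 inside. On the dense stretch of chromosome 14, Pcdh9, a protocadherin, had 83 and 7 assigned and 18 and 2 inside. The transcription factor gene Dach1 had 39 and 5 assigned and 8 and 0 inside, and Klf12 37 and 7 assigned and 16 and 1 inside. In the sparse stretch 23 of 339 genes had an assigned FA0 peak and 86 an FA4 peak, while 8 and 52 held a summit inside. Dad1, a subunit of the oligosaccharyltransferase, had 1 and 13 assigned but 0 and 0 inside.

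Over the genome, 10565 of 21883 protein-coding genes (48.3%) had an assigned FA0 peak and 6788 (31%) an FA4 peak. A peak in FA0 alone was found for 5496 (25.1%), in FA4 alone for 1719 (7.86%) and in both for 5069 (23.2%). The 3 sets had median lengths of 22.9, 17.5 and 44.9 kb, against 9.65 kb for genes with no peak. With FA0 cut to the length of FA4 the 3 counts were 3745, 2647 and 4141, so the gap between FA0 alone and FA4 alone moved with list length. Without chromosome 8 the counts were 5353, 1577 and 4589. The authors' assignment was not the same in both lists at some loci: at Grm8, a glutamate receptor gene of 860 kb, 24 FA0 and 0 FA4 peaks were assigned, but 21 FA0 and 5 FA4 summits lay inside its span in the reference table. The same was seen in the other direction at Gpc5, a glypican gene, with 0 and 10 assigned and 10 and 10 inside. At the 697 shared FA0 peaks the 2 lists gave the same gene in 97.7% and the same class in 97.1%. Of the genes with FA0 peaks alone 7.22% had an FA4 summit inside, and of those with FA4 peaks alone 12.2% an FA0 summit. A count by position was therefore made after the data were seen. By it 7204 genes (32.9%) held an FA0 summit and 4337 (19.8%) an FA4 summit, 4248 (19.4%) in FA0 alone, 1381 (6.31%) in FA4 alone and 2956 (13.5%) in both.

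Of the 8 genes with the most assigned FA0 peaks and none in FA4, 4 had no FA4 summit inside either. Prkcb, which encodes protein kinase C beta, had 13 FA0 peaks assigned and 11 FA0 summits inside, on chromosome 7. Sel1l, of the degradation pathway of the endoplasmic reticulum, had 15 assigned and 3 inside, on chromosome 12. Timm21, of mitochondrial protein import, and Inhbb, an activin subunit gene in the chromosome 1 stretch, had 16 and 14 assigned and 0 inside. The other 4 held FA4 summits: Grm8 as above, the receptor phosphatase gene Ptprt with 14 FA0 and 8 FA4 summits, the neuregulin gene Nrg3 with 12 and 1, and Ptprn2 with 14 and 1. Of the 8 genes with FA4 peaks alone by assignment, Lrrtm4, a synaptic adhesion gene, had 0 FA0 and 7 FA4 summits inside, Arhgef10, a guanine nucleotide exchange factor gene on chromosome 8, 0 and 6, and Camk2d, a calcium and calmodulin-dependent kinase gene, 1 and 7. Gpc5, Lhfpl3, Phf21a and Veph1 held summits of both lists, at 10 and 10, 7 and 6, 4 and 5, and 4 and 2. The last, Ptprtos, is an antisense gene in the Ptprt locus and took 7 FA4 peaks. Ranked by position, FA0 alone was led by Klhl1 in the dense stretch of chromosome 14 with 13 summits, the polarity gene Patj with 11, Prkcb with 11, and the nuclear receptor gene Rora with 10. Igf1r, the receptor of insulin-like growth factor 1, had 9 and 0. Patj lies on chromosome 4, Prkcb and Igf1r on 7, Sel1l on 12 and Timm21 on 18, where FA4 peaks were few along the whole chromosome. Rora lies on chromosome 9. FA4 alone by position was led by Lrrtm4 with 7 and by Arhgef10, Lrrc36, Sipa1l2 and Nf1 with 6 each. Nf1 encodes neurofibromin, a brake on Ras, and lies on chromosome 11. The others lie on chromosome 8 except for Lrrtm4, which is on chromosome 6.

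The 8 genes with the most assigned peaks in both lists all lay on chromosome 8, and some held few of these peaks within their own span. Tenm3, a teneurin that guides neuronal wiring, held 41 FA0 and 41 FA4 summits in 1297 kb. Cdh13, a cadherin without a cytoplasmic tail, held 42 and 36, and Galntl6, of the family that starts O-linked glycosylation, 34 and 32. Cdh11, another cadherin, had 33 and 48 assigned but 2 and 4 inside, and the lysosomal enzyme gene Aga, of 11.7 kb, 31 and 47 assigned but 0 and 2 inside. The other 3 are long non-coding RNA genes. A330008L17Rik had 46 and 39 assigned and 10 and 9 inside, Gm2516 39 and 48 assigned and 1 and 0 inside, and Gm15679 31 and 34 assigned and 0 and 1 inside. Off chromosome 8 the highest counts in both were at Lrrc4c, a netrin-G ligand gene, with 35 and 31 assigned and 9 and 8 inside, and at Cntnap2, a neurexin family gene of 2241 kb on chromosome 6, with 54 and 26 assigned and 41 and 24 inside. At Cntnap2 none of the 24 FA4 summits had 10 tags, against 8 of the 41 in FA0.

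Peaks were classed by the authors as intergenic for 47.8% of FA0 (47.3 to 48.3%) and 53.9% of FA4 (53.2 to 54.6%), and as intronic for 33.2% and 29.4%. The classes upstream of a gene (14.7% and 12.7%), promoter (3.19% and 3.07%) and exon (1.15% and 0.971%) were smaller. By the authors' distance, a peak lay over 100 kb from the transcription start assigned to it in 34.3% of FA0 and 39.3% of FA4. Since the assignment differed in places, summits were also set on the gene spans of the reference table. They fell inside a protein-coding gene for 43.2% of FA0 (42.7 to 43.7%) and 39.8% of FA4 (39.1 to 40.5%), and without chromosome 8 for 43.4% and 39.8%. The 6 brain lists ranged from 39.0% to 41.2%. The difference of 6.12 percentage points in the intergenic class shrank to 2.10 at 15 tags or more, where 61.8% of FA0 and 63.9% of FA4 peaks were intergenic, and to 1.25 among peaks with q of 0.05 or less, where the interval of FA0 minus FA4, -5.64 to 3.14 points, spans 0.

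The gene lists below were chosen with earlier results of these data known, and their shares are to be read against the 48.3% of all protein-coding genes with an FA0 peak and the 31% with an FA4 peak. Over all these genes there were 33296 assigned FA0 peaks and 16734 FA4 peaks, 1.99 times as many in FA0.

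**Figure D5:**
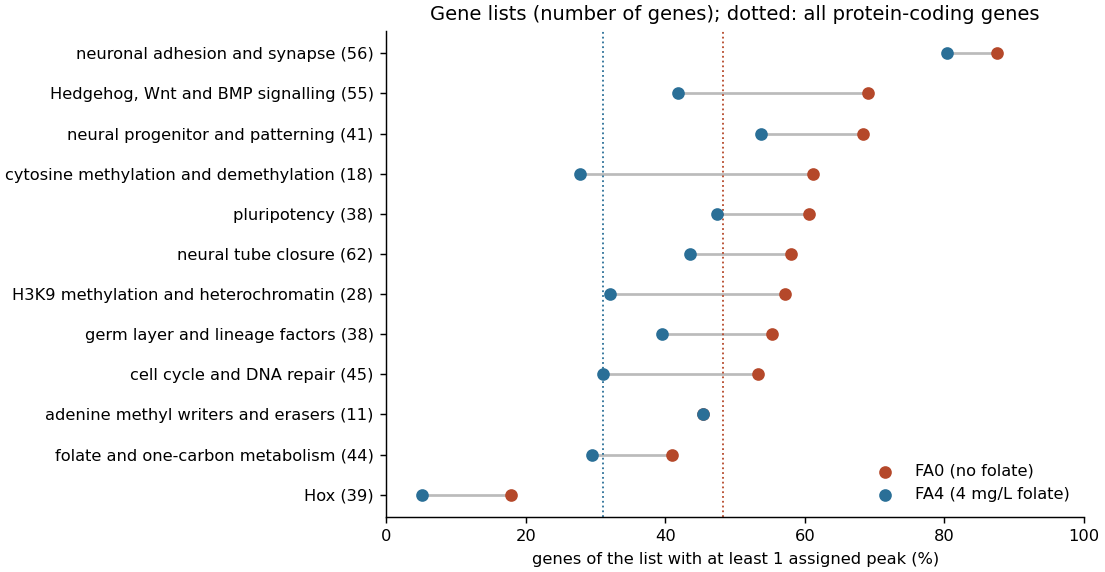
Share of the genes of each list with at least 1 assigned peak in FA0 and in FA4 (percent, number of genes in brackets). Dotted lines mark all protein-coding genes, 48.3% in FA0 and 31% in FA4; the Hox genes lie at 17.9% and 5.13% and the neuronal adhesion genes at 87.5% and 80.4%.

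Among 11 genes of adenine methyl writers and erasers, 5 had an FA0 peak and 5 an FA4 peak. Alkbh1, named first because its product was reported to remove 6mA in these cells, had 0 assigned peaks in both. By position it held 1 FA0 summit and 0 FA4 summits: a peak of 9 tags and fold 3.21 at chr12:87436865-87437113, which the authors assigned to Mir3068, a microRNA gene within its span of chr12:87428077-87443839. Its −log10 q was 0.440. Fto, an eraser of methyl marks on adenine in RNA, lies on chromosome 8 and held 12 and 9 summits. N6amt1 had 11 and 6 assigned and Mettl4 11 and 5, but 0 and 0, and 1 and 0, lay inside, the N6amt1 peaks being 60.9 to 719 kb from its start.

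Of 18 genes of cytosine methylation and its removal, 11 had an FA0 peak and 5 an FA4 peak, with 33 and 10 peaks, 3.30 times as many. Mbd2, a reader of methylated CpG, took 12 and 4, with 3 and 0 inside. Dnmt1, the maintenance methyltransferase gene, had 3 and 0 and Tet1, which oxidizes 5-methylcytosine, 2 and 0, with 2 and 0 inside each. Dnmt3b, a de novo methyltransferase gene, had 1 and 3. By position 8 and 3 genes of this list held a summit, and its median gene length was 31.8 kb against 17.2 kb over all genes. In the list of 28 heterochromatin and H3K9 methylation genes, with a median length of 44.0 kb, 16 and 9 had a peak and 13 and 11 a summit inside. Kdm4c, an H3K9 demethylase gene, had 8 and 4 peaks, the remodeller gene Smarcad1 10 and 1, and Jmjd1c 5 and 3. Ehmt1, which writes H3K9me2, had 4 and 0, all inside.

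Among the 44 one-carbon and folate metabolism genes, 18 and 13 had a peak, 40.9% and 29.5%, both below the share over all genes. They held 56 and 29 peaks, 1.93 times as many, near the 1.99 of all genes. Mat2b, the regulatory subunit of methionine adenosyltransferase, had 12 and 7 assigned, 0 and 1 of them inside. Ahcyl2, related to the enzyme that breaks down S-adenosylhomocysteine, had 10 and 3, and Mtrr, which reactivates methionine synthase, 5 and 2. Mthfd1l, of the mitochondrial one-carbon pathway, had 5 and 0, all in introns, with 7 or 8 tags each. Fpgs, which keeps folate in cells by adding glutamates, had 0 and 2.

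Of 38 pluripotency genes, 23 and 18 had a peak, with 120 and 33 peaks, 3.64 times as many. Klf5 had 18 and 3 and lies in the dense stretch of chromosome 14. Tfcp2l1 lies in the chromosome 1 stretch, and Klf4 (12 and 1) and Mycn (9 and 0) lie on chromosomes 4 and 12, which held few FA4 peaks. Outside chromosome 8 and the 3 stretches the list held 81 and 23 peaks, 3.52 times as many against 2.19 over all genes, and outside chromosomes 4, 7, 12 and 18 as well 45 and 16, or 2.81 against 1.95. By position the list did not stand above all genes: 19 and 11 summits lay inside its genes, 1.73 times as many, against 16981 and 8186, or 2.07, over all genes. Of 10 markers of embryonic stem cells, 7 had an assigned FA0 peak and 4 an FA4 peak, and Pou5f1, Sox2 and Lin28a had none in either. Nanog, a core factor of pluripotency, had 6 FA0 peaks of 7 or 8 tags and 0 in FA4, 2 of them inside the gene. Zfp42, also known as Rex1, had 9 and 3, with 1 and 0 inside. Peaks of genomic DNA give no expression, so the cell type on the labels could not be checked.

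Hox genes, which set position along the body axis, held few peaks. Of 39, 7 had an FA0 peak and 2 an FA4 peak, 17.9% and 5.13%, and their median length was 3.74 kb against 17.2 kb over all genes. Hoxc4 had 3 and 1, and Hoxb1 3 and 0. Germ layer and lineage factors had 21 and 15 of 38 genes with a peak, with Gata3 at 6 and 5, Isl1 at 5 and 5 and Tbx5 at 5 and 3, and 6 and 2 genes with a summit inside. Of 41 neural progenitor and patterning factors, 28 and 22 had a peak, led by Irx3 with 12 and 13 and Irx6 with 8 and 8 on chromosome 8 and by En1. Inside the genes themselves, with a median length of 6.00 kb, 6 and 2 of the 41 held a summit.

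Of 62 genes of neural tube closure, 36 (58.1%) had an FA0 peak and 27 (43.5%) an FA4 peak, and 30 and 19 held a summit inside. Their median length was 35.1 kb against 17.2 kb over all genes, and over the genome genes with a peak were longer than those with none. Cobl, an actin nucleator, had 20 and 10 peaks, Kif20b, a kinesin, 6 and 9, and Marcks, a membrane and actin binding protein, 10 and 4. Cecr2, whose loss gives open neural tubes in mice, had 9 and 0, all inside, on chromosome 6. Fzd3, a receptor of planar cell polarity, had 0 and 3 and lies in the sparse stretch of chromosome 14, and Nf1 had 0 and 6 inside. Of 55 genes of Hedgehog, Wnt and BMP signalling, with a median length of 46.2 kb, 38 and 23 had a peak and 31 and 16 a summit inside. Hhip, which binds and holds back Hedgehog ligands, had 12 and 18 assigned, and Smad1, a mediator of BMP signals, 11 and 8, both on chromosome 8. By position Hhip held 4 and 2 summits and Smad1 1 and 3, which turns the order in both genes. Without chromosome 8 this list had 2.69 times as many FA0 as FA4 peaks, beside 2.22 over all genes. The Wnt ligand gene Wnt5b had 6 and 0 and the Wnt co-receptor gene Lrp5 5 and 0.

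Of 45 cell cycle and DNA repair genes, 24 and 14 had a peak, with Cdk6 at 8 and 11 and Cdkn2b at 3 and 2, and Lig4, on chromosome 8, at 0 and 5. Of 56 neuronal adhesion and synapse genes, with a median length of 907 kb, 49 (87.5%) and 45 (80.4%) had a peak. They took 844 and 517 peaks, a ratio of 1.63, and without chromosome 8 697 and 310, or 2.25, near the 2.22 over all genes. After Cntnap5a, the most were at Cdh13 and at Csmd1, a complement-regulating membrane protein gene of chromosome 8, with 25 and 58 assigned and 22 and 37 inside. Among peaks of 10 tags or more, 17.7% of all protein-coding genes had one in FA0 and 8.76% in FA4. The pluripotency list then had 13 and 4 of 38 genes, the folate list 5 and 2 of 44, and the neural tube closure list 11 and 9 of 62. These are assigned peaks, which need not lie inside the gene. Klf5 had 7 such FA0 peaks and Klf4 2, with 0 summits inside either gene. Tfcp2l1, in the chromosome 1 stretch, had 10, with 4 FA0 summits of any size inside.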

How the data were processed

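6mA immunoprecipitates and inputs of Sv/129 mouse embryonic stem cells were sequenced by the authors. The submitters' processing notes name cutadapt 1.9.2, Bowtie2 2.2.4 and mm10, while the program that called peaks was not named in the sources used here. The deposited tag counts are raw whole numbers by their values. The authors' fold is a ratio of tags plus 1 over a background plus 1, read from its values. The p-value and q-value were deposited as −log10 by the authors, and no p exceeds 0.01. Each stem cell list was called per immunoprecipitate against its own input, per the file headers. By their names, the brain case lists were all called against the Case1 input and the brain control lists against the Control1 input.

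The 53028 FA0 and 27107 FA4 rows, 1 per peak and transcript, were collapsed by peak name. Gene assignments and feature classes come from the authors. Symbols were matched to the RefSeq table of GRCm38.p6 (99.6% matched in each list), and 320 FA0 and 200 FA4 rows whose gene lies on another chromosome there were left out of gene counts. A peak summit inside a gene's start-to-end span was counted by position, with introns included. Shares carry Wilson intervals and count ratios exact Clopper-Pearson intervals at 95%. Library depth is not known from these files beyond the tags in peaks and the recovered background. The most frequent background was 2.118 tags in FA0 and 1.862 in FA4. At these backgrounds an equal minimum of tags is a lower fold in FA0 than in FA4. Brain lists served for the position of peaks alone.

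Genes were named by rule: Alkbh1, the 6 leading peaks of each list alone and shared, the 8 genes with the most peaks in 1 list alone and in both (4 without chromosome 8), up to 3 leading genes per list, and the 5 highest and 5 lowest windows. Other genes, the promoters and the stretches were named after their values were seen. The members and lists were chosen with earlier results of these data known. Alternatives were minimum tags, no chromosome 8, q of at most 0.05, fold of at least 5, FA0 cut to the length of FA4 by p, overlap of at least 50% of the shorter peak, windows of 5 Mb and peaks in promoter, exon or intron. Peaks at the common background, lists without chromosome 8 and the chromosome 1 stretch, and counts by position were added after seeing the data. The procedures were tested on simulated peaks. Figures were drawn with matplotlib 3.10.9, and values computed in Python 3.11.15 with scipy 1.17.1, pandas 2.3.3 and numpy 2.4.6.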

Additional observations from a re-analysis of the deposited data

How the results depend on the processing

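No paired analysis was possible because each condition has 1 list and no test was made. Of 110 values recomputed under 12 alternatives, 49 stayed within their counting interval or 1.5 times the count, 57 moved and 4 changed direction; the causes were not tested. The FA0 over FA4 number of peaks was 2.14 at 10 tags, 1.56 at 15 tags, 2.14 without chromosome 8, 1.09 at q of at most 0.05, 2.06 at the common background and 2.11 without chromosome 8 and the chromosome 1 stretch, and fell to 0.870 at a fold of at least 5, with an interval of 0.555 to 1.36 that spans 1. The chromosome 8 share in FA0 and FA4 was 11.7% and 26.6% at 10 tags, 13.4% and 19.7% at 15 tags, 13.8% and 21.4% at q of at most 0.05, 7.50% and 32.6% at fold 5, and 7.02% and 4.80% at the common background. The intergenic difference was -2.10 points at 15 tags, -1.25 at q of at most 0.05 and -7.08 without chromosome 8 and the chromosome 1 stretch, and 4.02 at fold 5 (-17.1 to 25.1), while the intron difference was -1.25 at q of at most 0.05 (-5.19 to 2.70) and -2.28 at fold 5 (-22.3 to 17.7). The 4 values that changed direction thus have intervals that hold no change, and show no direction. The shared percentage of FA0 and FA4 peaks was 3.31 and 7.04 with both lists at 10 tags, 23.9 and 37.1 at 15 tags, 9.39 and 10.2 at q of at most 0.05, 2.25 and 2.25 with FA0 cut to the length of FA4, 1.36 and 2.60 at an overlap of 50% of the shorter peak, and 0.664 and 1.37 at the common background; for FA0 it was 1.55 without chromosome 8 and 1.56 without the chromosome 1 stretch as well. Genes in FA0 alone, FA4 alone and both numbered 2951, 999 and 917 at 10 tags, 142, 42 and 97 at 15 tags, and 579, 521 and 115 at q of at most 0.05. FA4 alone rose to 2647 with FA0 cut to the same length, and genes in both fell to 2077 for peaks in the promoter, exon or intron and 2956 by position. Windows over 1.5 times higher and lower in FA0 numbered 2 and 1 at 15 tags, 1 and 6 at q of at most 0.05, and 123 and 78 at 5 Mb. List members with an FA0 and an FA4 peak numbered 112 and 64 at 10 tags, 8 and 6 at 15 tags, and 155 and 105 for peaks in the promoter, exon or intron. The common background, the chromosome 1 stretch and the count by position were chosen after seeing the data.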
